A study of Mus musculus with 2 samples.

Results

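The mitochondrial ribosomal proteins of the omentum were examined in 2 RNA-seq libraries, 1 from wild-type (WT) mice and 1 from Postn-DTR mice. Members were the gene symbols that begin with Mrpl or Mrps followed by a digit and whose mean FPKM over both libraries was at least 1. FPKM is a fragment count corrected for the length of the transcript and for sequencing depth. Of the 24346 symbols listed, 77 matched the names, and all 77 passed the minimum, so that no member was lost to it. Per the labels both libraries were made from omentum, a fold of visceral fat with lymphoid clusters, 5 days after diphtheria toxin (DT), which the WT mice received too. Postn-DTR mice are heterozygotes on a C57BL/6 background in which a DT receptor was inserted into the first coding exon of Postn, so that every cell using the Postn promoter is a target, and not only the Aldh1a2+ fibroblastic reticular cells of the milky spots. Sex, age and the number of mice behind a library were not given in the sources used here.

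Mitochondria keep their own ribosome, which translates only the few mRNAs of mitochondrial DNA, all of them for subunits of the respiratory chain and ATP synthase. Its rRNAs come from mitochondrial DNA, whereas all its proteins are encoded in the nucleus, made by cytosolic ribosomes and imported. Some of these proteins have a counterpart in the bacterial ribosome, and the others were added in the mitochondrial lineage. In a fat tissue, mitochondrial translation supplies both the adipocytes and the leukocytes and stromal cells between them.

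With 1 library per genotype the spread between mice is unknown and no test between genotypes could be run. For each gene, log2(FPKM + 1) of WT was subtracted from that of Postn-DTR, and the result is called the change. It was read beside 13127 genes that passed the same FPKM minimum. From the steps between very low FPKM values, the depth was estimated at 23300000 fragments (WT) and 24100000 fragments (Postn-DTR), which gave the members roughly 102 to 5747 fragments each. The resulting counting error of a change had a median of 0.07 (SE on the log2 scale) and reached 0.19 for Mrpl41. It rests on annotated transcript lengths and does not contain the variation between mice. As a check of the genotype, Postn had an FPKM of 58.3 (WT) and 16.2 (Postn-DTR), while the glycolytic gene Gapdh was at 739.2 and 733.0. The libraries also differed in total: the FPKM of all symbols added up to 542190 for WT and to 671882 for Postn-DTR. Rescaling both libraries to the same total, after 10 listed pancreatic acinar genes were removed, lowered the median change of all genes by 0.29. These 10 were nearly confined to the WT library (8782 summed FPKM against 17.4). The list may not hold all genes of that kind. A gene outside it had a change of -8.09 and stayed in the totals, and whether that gene is an acinar gene was not examined.

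The mitochondrial ribosomal proteins were slightly higher in Postn-DTR, in most members by less than 1.5-fold. Of the 77 genes 56 had a change above 0, where 51.9% of all genes compared did, and 21 had a change below 0. Their median change was 0.16, beside 0.02 for all genes compared, and the middle 50% of members reached from -0.01 to 0.32. At equal totals this median turned to -0.16 and only 19 members kept a change above 0, but the median of all genes then stood at -0.27, so that the members lay above it by 0.11, against 0.15 with FPKM as deposited. Genes of higher FPKM lay above the rest too: over the 9760 genes in the members' range of mean FPKM the median change was 0.05, with 55.3% above 0. With the minimum set to a mean FPKM of 10, the median of all was 0.09 and that of the 70 members left was 0.17, a distance of 0.08. Over the 4 scalings, 19 members were higher in each, 21 were lower in each, and the direction of the other 37 depended on the scaling. Each scaling shifts all genes almost alike. The 19 are therefore simply the members above 0 at equal totals, and the 21 those below 0 as deposited. The shares of all genes compared that were higher or lower in each were not computed. The 19 were Mrps18b, Mrps9, Mrps18c, Mrpl20, Mrpl57, Mrpl41, Mrpl33, Mrps24, Mrps23, Mrpl47, Mrpl23, Mrpl3, Mrpl52, Mrps26, Mrps35, Mrpl46, Mrpl22, Mrps33 and Mrpl17. Every other member was lower at equal totals, those with a change above 0 as deposited included.

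Large differences were rare among the members. A change of at least 1.5-fold upward was reached by 1 member, Mrps18b, where 9.86% of all genes compared did so, and 0 members were at least 1.5-fold lower, against 8.84%. No member reached 2-fold in either direction, against 3.88% of all genes higher and 3.12% lower. The SD of the change over members was 0.25. It was 0.71 over all genes compared and 0.63 over the 9760 genes whose mean FPKM lay in the range of the members. A small SD was not particular to the members. Among the lists described below, it was 0.15 for cytosolic ribosomal proteins and 0.18 for mitochondrial ribosomal proteins under other symbols. It was 0.19 for mitochondrial DNA maintenance and transcription, 0.22 for mitochondrial tRNA charging and 0.27 for mitochondrial translation factors. For assembly factors and biogenesis regulators it was 0.41 and 0.42. For 33 members the change was smaller than its approximate 95% counting interval, and of the other 44, 36 were higher and 8 lower in Postn-DTR with FPKM as deposited. This balance turned at equal totals, where 5 members were higher and 37 lower beyond the interval. The share of all genes beyond such an interval was not computed. Summed over members, FPKM was 2833 (WT) and 3177 (Postn-DTR). As a share of all FPKM this was 0.523% and 0.473%.

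**Figure D1:**
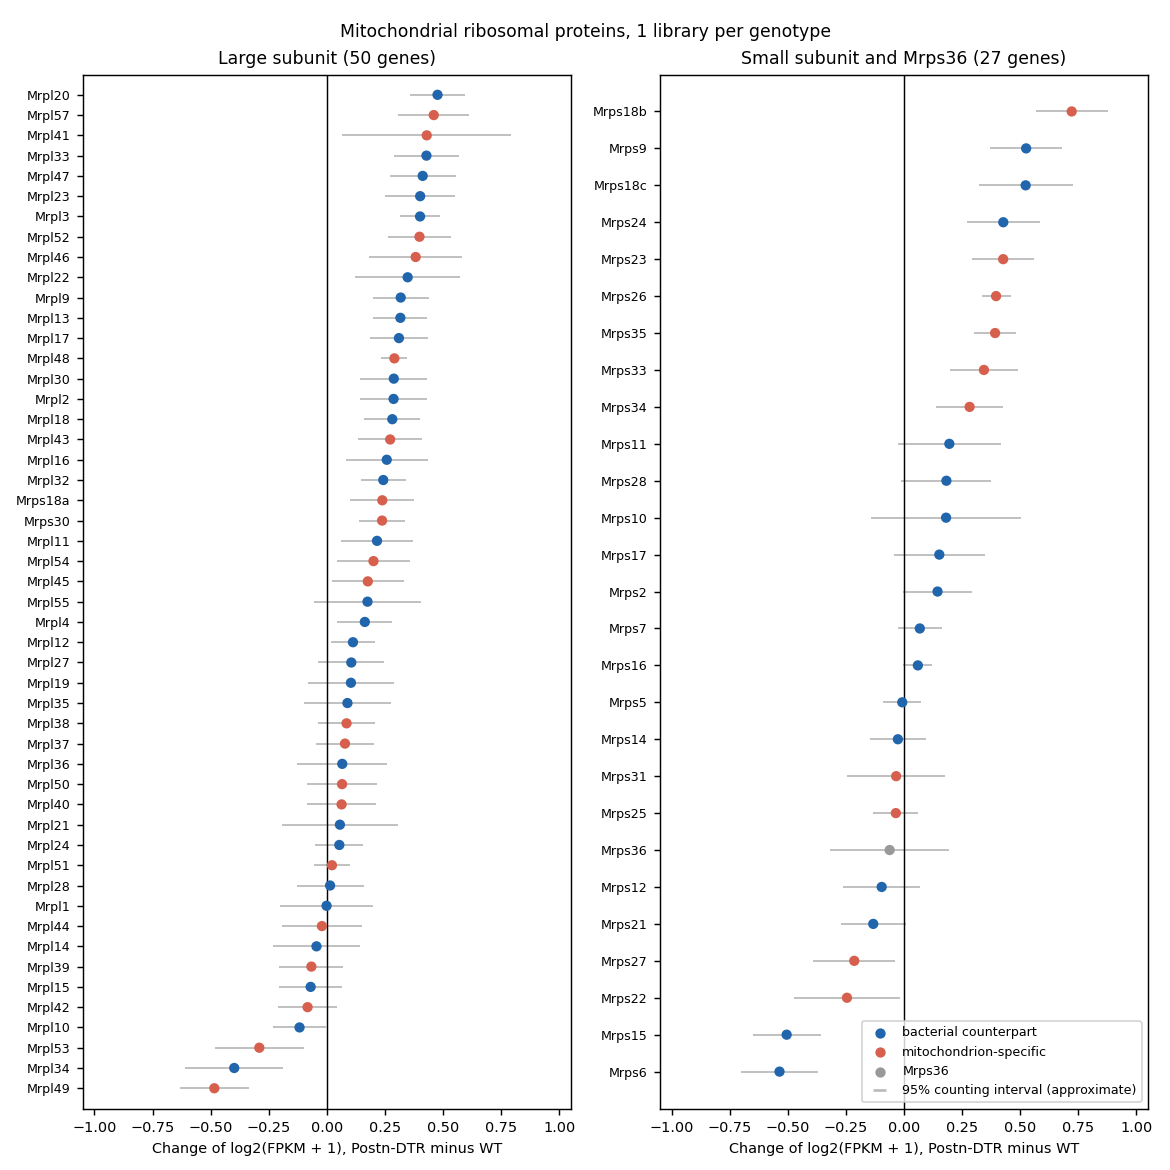
Difference in log2(FPKM + 1) between Postn-DTR and WT (positive where Postn-DTR is higher) for each of the 77 members, 1 library per genotype, with large-subunit proteins on the left and small-subunit proteins and Mrps36 on the right. Bars are approximate 95% counting intervals and contain no variation between mice; most points lie right of 0, from -0.54 for Mrps6 to 0.72 for Mrps18b.

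The start regions were read for 3 words tied to nuclear control of mitochondrial genes. These were CCGGAAG, bound by ETS factors such as GABP, GCATGCGC, the core of the site for NRF1, and AAGATGGC, which is bound by YY1, and none of the 3 contains another. Both strands were searched over 250 bases before to 50 after each RefSeq start, and 68 of the 77 members had such a sequence. The ETS word was found in 25 of 68 members (36.8%), beside 19.3% of the 9953 genes compared that had a sequence, 9.93% of all 27025 genes with one, and 42.1% of cytosolic ribosomal protein genes. The NRF1 word was found in 8 (11.8%), beside 5.72% of genes compared and 3.05% of all. The YY1 word was found in 12 (17.6%), beside 5.09% and 3.19%. Members with the ETS word had a median change of 0.28 and those without it 0.09, and 19 of 25 and 29 of 43 were higher. With and without the NRF1 word the medians were 0.31 and 0.11, and for the YY1 word 0.07 and 0.18. Members with any of the 3 words had a median of 0.19 and those with none 0.14, and 27 of 37 and 21 of 31 were higher. The change of all genes compared with and without each word was not computed. These are descriptions across genes, and a match is not a bound site.

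The 150 bases before the start are shown for 4 members, chosen after their values were seen, from RefSeq on GRCm38.p6. They read 5′ to 3′ on the plus strand, which is the strand of all 4 genes, with every ETS, NRF1 or YY1 word that lies wholly within the stretch in capitals. Mrpl22 (chr11:58171514-58171663) and Mrpl33 (chr5:31613801-31613950) were higher in Postn-DTR and carry the NRF1 word, and both also carry the ETS word, which in Mrpl33 runs across the start and is not in capitals. Mrpl10 (chr11:97041432-97041581) and Mrpl34 (chr8:71464776-71464925) were lower and carry the NRF1 word and the ETS word, respectively.
Mrpl22: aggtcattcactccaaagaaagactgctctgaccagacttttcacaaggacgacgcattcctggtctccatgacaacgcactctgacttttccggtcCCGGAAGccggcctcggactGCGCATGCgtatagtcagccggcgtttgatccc
Mrpl33: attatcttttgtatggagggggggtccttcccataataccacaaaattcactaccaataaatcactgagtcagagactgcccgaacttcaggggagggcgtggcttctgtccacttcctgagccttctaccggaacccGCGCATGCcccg
Mrpl10: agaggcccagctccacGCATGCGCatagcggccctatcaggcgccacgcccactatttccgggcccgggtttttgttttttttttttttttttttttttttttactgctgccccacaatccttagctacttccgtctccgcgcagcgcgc
Mrpl34: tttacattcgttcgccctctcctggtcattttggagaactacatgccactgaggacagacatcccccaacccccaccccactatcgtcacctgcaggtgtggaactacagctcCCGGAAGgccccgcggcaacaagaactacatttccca

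The ETS word ran across the start of Mrpl33. It stood before Mrpl22, which had an FPKM of 23.1 (WT) and 29.6 (Postn-DTR), and before Mrpl34, which had 44.6 and 33.6. The NRF1 word stood before Mrpl33, with 110.8 and 149.5, and before Mrpl10, with 35.1 and 32.2.

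The levels themselves spanned a wide range, although each protein except the stalk protein MRPL12 stands in the ribosome as a single copy. FPKM is per length, but the 3 highest members have annotated transcripts of only 405 to 478 bases, so the order of levels is uncertain where lengths differ. WT FPKM went from 3.96 for Mrpl19 to 187.9 for Mrps21, with a median of 29.3, and Postn-DTR FPKM from 4.33 for Mrpl19 to 207.7 for Mrpl52, with a median of 33.5. By mean FPKM 3 members exceeded 100 and 7 were under 10.

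The highest was Mrpl52, with an FPKM of 157.3 (WT) and 207.7 (Postn-DTR). It was followed by Mrps21, with an FPKM of 187.9 and 171.2, and by Mrpl33, with 110.8 and 149.5. Mrpl52 and Mrps21 thus exchanged the first place between the libraries. Mrpl42 had an FPKM of 96.7 (WT) and 91.3 (Postn-DTR), Mrpl20 of 76.9 and 107.4, and Mrpl30 of 79.1 and 96.9. Mrpl23, a protein at the exit of the peptide tunnel, had 69.0 and 91.5. Mrps16 had an FPKM of 72.1 (WT) and 75.2 (Postn-DTR), Mrpl54 of 64.6 and 74.4, and Mrpl24 of 68.0 and 70.6. Mrpl12, which forms the stalk that recruits translation factors, came next with 66.3 and 71.7. At the low end stood Mrpl19 (3.96 and 4.33), Mrpl1 (5.16 and 5.16) and Mrpl35 (5.37 and 5.77), and these were also the members nearest to the FPKM minimum. The order of levels was nearly the same in both libraries, with a Pearson correlation of 0.974 over the log2 FPKM of the 77 genes, a description across genes that share the tissue and the pipeline. Shorter transcripts had higher FPKM (Spearman correlation of -0.59 between mean FPKM and annotated length), whereas the change was related neither to length (-0.03) nor to mean FPKM (0.10). Whether the FPKM of short transcripts is raised by the estimate of effective length was not tested.

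**Figure D2:**
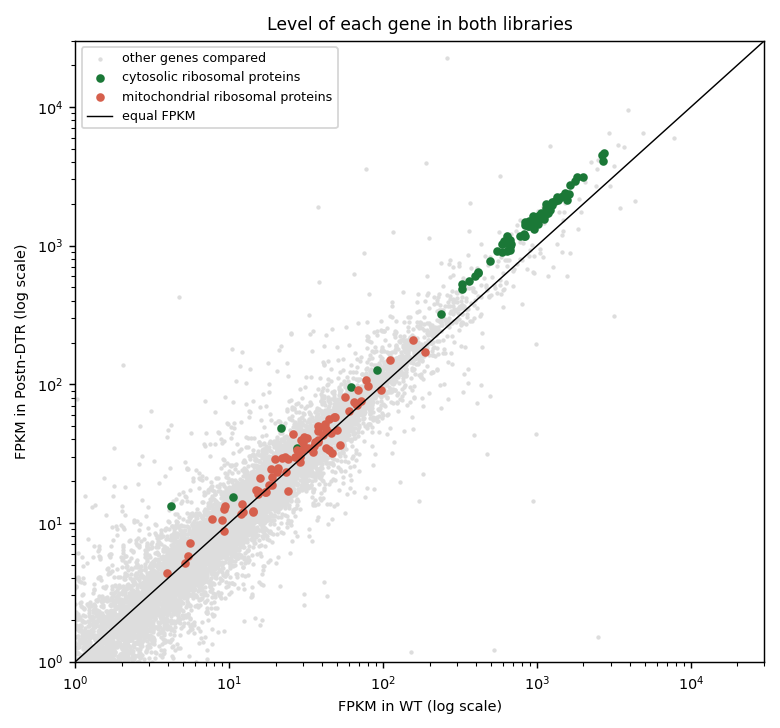
FPKM in WT (horizontal) and in Postn-DTR (vertical) on log axes that start at 1, so that lower values are not drawn, with 1 point per gene, for the 77 mitochondrial and 77 cytosolic ribosomal proteins over the other genes compared. Mitochondrial members lie around the line of equal FPKM, from about 4 to about 208, and every cytosolic member lies above it.

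The large subunit, which joins amino acids, was represented by 50 members. Mrps30 and Mrps18a were counted here, since both sit in the large subunit in structures in spite of their names. Of these 50 members 40 had a change above 0, with a median of 0.18. Among the 30 with a bacterial counterpart 25 were higher, and the median change was 0.20. Mrpl20 had the largest difference of this set, at 76.9 (WT) and 107.4 (Postn-DTR), a change of 0.48. Mrpl33 had a change of 0.43 and Mrpl47, at the tunnel exit, went from an FPKM of 9.29 to 12.7 with a change of 0.41. Mrpl3, next to the peptidyl transferase centre, had an FPKM of 22.1 and 29.5. Of the proteins that line or ring the peptide tunnel, Mrpl4 had a change of 0.16, Mrpl22 of 0.35, Mrpl23 of 0.40 and Mrpl24 of 0.05. The stalk and its base did not share a direction, with changes of -0.12 for Mrpl10, 0.22 for Mrpl11 and 0.11 for Mrpl12. The lowest of the bacterial-type large-subunit genes was Mrpl34, with an FPKM of 44.6 (WT) and 33.6 (Postn-DTR), a change of -0.40.

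Of the 20 mitochondrion-specific members of the large subunit 15 were higher, with a median change of 0.13. Mrpl57 had an FPKM of 9.38 (WT) and 13.3 (Postn-DTR) and a change of 0.46. Mrpl41 followed with 7.73 and 10.8 and a change of 0.43, on about 102 and 147 fragments, the fewest of all members. Mrpl46 had 15.9 and 21.1, a change of 0.38. Mrpl45, which tethers the ribosome to the inner membrane beside the insertase OXA1L, had 12.1 and 13.8, a change of 0.18. Mrpl37 and Mrpl38 had changes of 0.08 and 0.09, smaller than their counting intervals. Mrpl44, which is mutated in a human cardiomyopathy, was at 19.0 and 18.7. The lowest changes of the set were -0.48 for Mrpl49, with an FPKM of 24.2 (WT) and 17.0 (Postn-DTR), and -0.29 for Mrpl53, with 42.7 and 34.7.

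The small subunit, which holds the mRNA and decodes it, was represented by 26 members, of which 16 were higher. Its median change was 0.15, and that of the large subunit was 0.18, so the 2 subunits differed by 0.03 in median. The small subunit was the more spread, with an SD of 0.31 against 0.21, and held both ends of the range. At the upper end, Mrps18b had an FPKM of 26.1 (WT) and 43.6 (Postn-DTR), a change of 0.72 that exceeded 92.9% of all genes compared. Mrps9 had 19.7 and 28.8, a change of 0.53, and Mrps18c had 56.1 and 81.0, a change of 0.52. These 3 kept a change above 0 at equal totals, at 0.40, 0.21 and 0.20. Each of the 3 overlaps another annotated gene (Gm16279, Gm23126 and Gm43511, in this order), which makes their values uncertain. Mrps18b, Mrps18c and Mrps18a are paralogues related to the same bacterial small-subunit protein, and Mrps18b was counted as mitochondrion-specific because it sits elsewhere in the subunit. The Mrps18b gene lies at chr17:35910379-35916389 on the minus strand of GRCm38. Mrps18a, the paralogue of the large subunit, had 48.8 and 57.8, and its change of 0.24 became -0.09 at equal totals.

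At the lower end, Mrps6 had an FPKM of 46.4 (WT) and 31.7 (Postn-DTR), a change of -0.54, which was the lowest of all members. Its gene, at chr16:92058270-92112227 on the plus strand of GRCm38, overlaps Slc5a3, and without the counting rules reads cannot be assigned between them with certainty. Mrps15 had 52.6 and 36.7, a change of -0.51. Mrps22 and Mrps27, mitochondrion-specific proteins of which the latter binds RNA through pentatricopeptide repeats, had changes of -0.25, from 14.3 and 11.9, and -0.21, from 14.3 and 12.2. The genes Mrps6, Mrps15, Mrpl49, Mrpl34 and Mrpl53 were at least 1.5-fold lower at equal totals. With the 75th percentile made equal this held for Mrps6 and Mrps15. The median of all genes compared was itself -0.27 at equal totals and -0.07 at an equal 75th percentile. The share of all genes at least 1.5-fold lower was not computed for these scalings. Among the mitochondrion-specific small-subunit genes 6 of 10 were higher. Mrps23, with an FPKM of 29.3 and 39.8, had a change of 0.43, Mrps26 of 0.40, Mrps35 of 0.39, Mrps33 of 0.34 and Mrps34 of 0.28, next to Mrps18b. Among those with a bacterial counterpart 10 of 16 were higher, with a median of 0.11, among them Mrps24 at 30.8 and 41.7. Mrps12, at the decoding centre, had an FPKM of 50.03 and 46.7, and Mrps5 of 23.3 and 23.1. Over both subunits, members with a bacterial counterpart and mitochondrion-specific members had medians of 0.16 and 0.19, and their order turned when transcripts under 1000 bases were left out. Mrps36 carries the family name but is known as a subunit of the 2-oxoglutarate dehydrogenase complex. It had an FPKM of 28.8 (WT) and 27.6 (Postn-DTR), a change of -0.06.

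Some proteins of the mitochondrial ribosome carry other symbols. Of 6 such genes 4 were higher, with a median change of 0.12, which was -0.21 at equal totals. Chchd1 had an FPKM of 62.6 (WT) and 72.3 (Postn-DTR), Aurkaip1 of 48.6 and 53.7, and Gadd45gip1 of 13.6 and 16.8. Ict1, the older symbol of Mrpl58, which releases peptides from stalled mitochondrial ribosomes, was at 36.4 and 38.8. Dap3, a GTP-binding protein of the small subunit, was at 11.4 and 10.3, and Ptcd3 at 15.7 and 13.9.

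Genes for other steps of mitochondrial translation had medians below 0. Their levels were lower than those of the members. The median of mean FPKM was 9.84 for translation factors and 6.68 for tRNA charging, against 33.5 for members. Whether level underlies the difference in change was not tested. The mitochondrial translation factors had a median change of -0.20 (5 of 13 higher), and of -0.51 at equal totals (1 of 13). Tufm, the elongation factor that brings aminoacyl-tRNA, had an FPKM of 57.2 (WT) and 40.2 (Postn-DTR), a change of -0.50. Gfm1, the translocase, was at 19.7 and 17.1, and Gfm2, a recycling factor, at 11.3 and 8.36. Oxa1l, the inner-membrane insertase, was on the other side at 23.6 and 29.2, a change of 0.30. The genes for charging mitochondrial tRNAs had a median of -0.15 (8 of 20 higher), and of -0.44 at equal totals (0 of 20). Lars2 was the highest of them at 213.0 and 185.5, and Vars2, at 7.59 and 4.73, was the only one past 1.5-fold.

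Factors that assemble the mitochondrial ribosome had a median change of -0.01 over 24 genes, with 11 of them higher and an SD of 0.41. Malsu1, which acts on the large subunit, had an FPKM of 17.0 (WT) and 32.4 (Postn-DTR), a change of 0.89. The helicase Ddx28 had 7.51 and 13.2, a change of 0.74, and Rbfa, which acts on the small subunit, had 26.3 and 40.6, a change of 0.60. In the other direction Mterf4 had 45.7 and 20.1, a change of -1.15. For genes of mitochondrial DNA maintenance and transcription the median was 0.09, with 7 of 12 higher, and it turned to -0.20 at equal totals. Slirp, which stabilises mitochondrial mRNAs, had 85.2 and 112.3, and Lrpprc, the protein it binds, had 10.6 and 9.93. Polrmt, the mitochondrial RNA polymerase, was at 9.81 and 8.52. Of the nuclear regulators of mitochondrial biogenesis 6 of 8 were higher, with a median of 0.19, and at equal totals 3 of 8 with a median of -0.12. Myc had an FPKM of 15.5 (WT) and 30.7 (Postn-DTR), a change of 0.94. Ppargc1b had 0.460 and 1.77, and Nrf1 had 8.11 and 11.4. Gabpa, at 11.3 and 10.6, and Yy1, at 20.7 and 19.2, were the 2 that were lower. Genes encoded by mitochondrial DNA were not analysed here, since 0 of the symbols listed begin with mt-, the prefix of such genes.

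**Figure D3:**
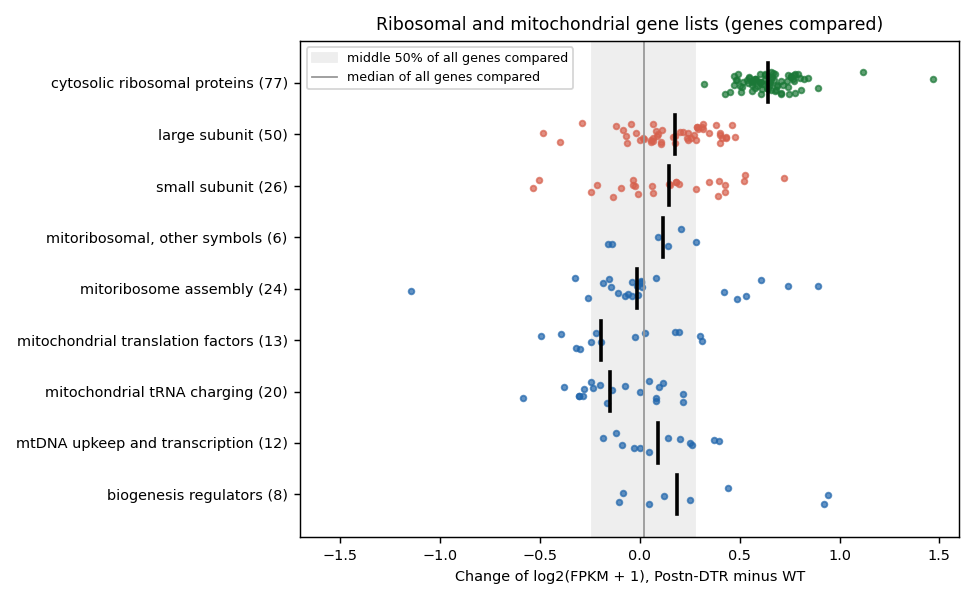
Change of log2(FPKM + 1) for each gene of the ribosomal and mitochondrial lists, with a black bar at the median of each list, the number of genes in brackets, and grey shading over the middle 50% of all genes compared. Medians run from -0.20 for mitochondrial translation factors to 0.64 for cytosolic ribosomal proteins, and both mitochondrial subunits lie between, at 0.18 and 0.15.

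The cytosolic ribosomal proteins were set beside them as background. All 77 cytosolic genes had a change above 0, and 52 of them reached 1.5-fold. At equal totals these counts were 76 and 2 and the median was 0.31, and at an equal 75th percentile 23 reached 1.5-fold with a median of 0.54. As deposited, their median was 0.64 and their middle 50% reached from 0.56 to 0.72, a narrower band than that of the mitochondrial members. Rps29, for example, had an FPKM of 2739 (WT) and 4624 (Postn-DTR), and Rpl13a of 877.2 and 1393. The lowest cytosolic change was 0.32, for Rpl30, and 59 of the 77 mitochondrial members lay below it. Only 1 mitochondrial member, Mrps18b, lay above the cytosolic median. The 2 medians differed by 0.48, and this difference was between 0.47 and 0.51 under all 9 alternatives tried. Scaling a whole library moves both medians almost alike, so the scalings could hardly change the difference. The alternatives that kept fewer members left the cytosolic median at 0.64. The narrow range is therefore not read as support. Many cytosolic genes have near-identical processed copies in the genome, which makes their single values uncertain, for example Rps27 at 4.17 and 13.3.

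**Figure D4:**
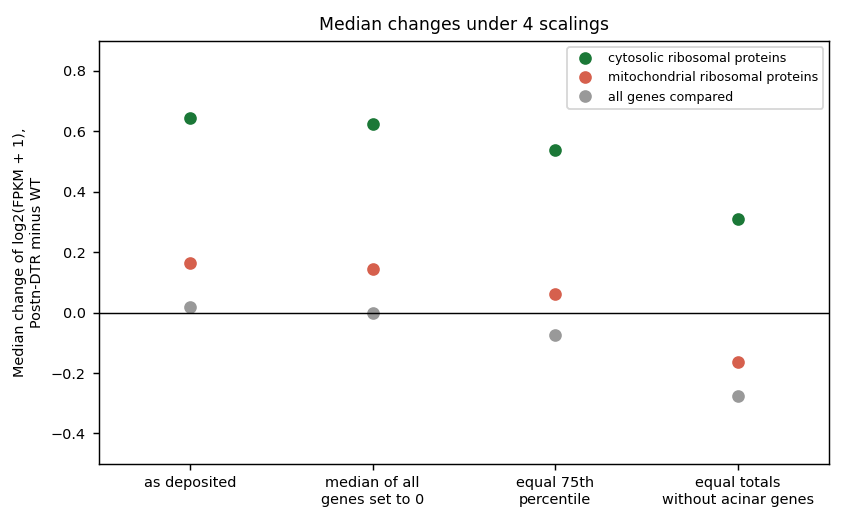
Median change of log2(FPKM + 1) over the mitochondrial ribosomal proteins, the cytosolic ribosomal proteins and all genes compared, under 4 scalings of the same 2 libraries. The median of the mitochondrial members goes from 0.16 as deposited to -0.16 at equal totals. The 3 medians keep their order, which a scaling could hardly change, since it shifts all 3 almost alike.

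Markers of cell types differed between the same libraries, and a bulk measurement cannot tell fewer cells of a type from less RNA per cell. All 6 macrophage markers were on the higher side, their median change was 1.25, and they had a summed FPKM of 3546 (WT) and 5823 (Postn-DTR). All 5 T cell markers (93.5 and 49.6 summed FPKM) and all 4 B cell markers (436.5 and 319.8) were lower. Of 8 adipocyte markers 6 were lower, with a median change of -0.57, but their summed FPKM of 7969 and 8763 came mostly from Fabp4, at 4879 and 6519. Of 4 fibroblast markers 3 were lower. The 4 mesothelial markers were split, with 2 higher and 2 lower and a median change of 0.03. The brown adipocyte marker Cidea was at 4.46 and 1.90, and Ucp1 and Ppargc1a were under the FPKM minimum. The part of these differences in the values of the mitochondrial ribosomal proteins was not tested.

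Many members share a start region with a neighbour on the opposite strand, which allows 2 genes next to each other to be compared. In GENCODE release M21 (GRCm38), 27 pairs were found in which a gene that is no member started within 1000 bases of a member on the other strand and was also among the genes compared. Of these members 21 and of their neighbours 16 were higher, and the neighbours had a median change of 0.05. The direction was the same in 16 of 27 pairs, from which nothing is read, since most genes on both sides were higher. The pair that differed most was Mrpl49 and Fau, whose starts lie 59 bases apart. Fau encodes a cytosolic ribosomal protein of the small subunit, fused to a ubiquitin-like part. Its FPKM was 1093 (WT) and 1895 (Postn-DTR), a change of 0.79, beside -0.48 for Mrpl49, whose gene also overlaps Syvn1. Mrps18b was also apart from its neighbour Ppp1r10, which had an FPKM of 13.998 and 11.6. Mrpl32 and the proteasome gene Psma2, at 116.7 and 149.8, were close, with changes of 0.24 and 0.36, as were Mrpl18 and the chaperonin gene Tcp1, with 0.28 and 0.26. The genes Mrpl18 and Tcp1 overlap, so their values may not be independent. Mrpl46 and Mrps11, both members that overlap each other and start 412 bases apart, had changes of 0.38 and 0.19. The labels name a library kit that keeps strand, whereas the study's methods name another kit for sorted omental cells. Whether strand was kept and used in counting is therefore not known, so values of overlapping genes are uncertain.

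**Figure D5:**
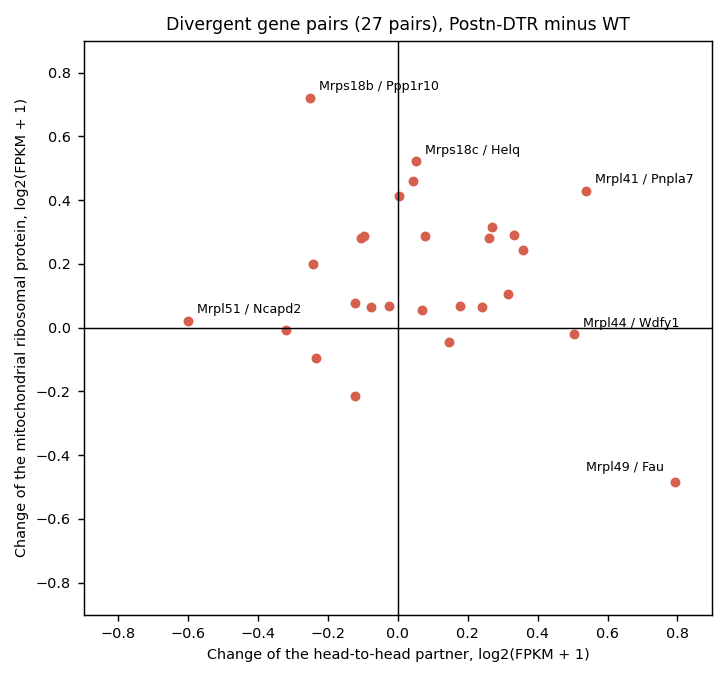
Difference in log2(FPKM + 1) between Postn-DTR and WT for 27 mitochondrial ribosomal protein genes (vertical axis) and for the neighbour that starts within 1000 bases on the other strand (horizontal axis), with 1 point per pair. The pair Mrpl49 and Fau stands alone at the lower right, with -0.48 for Mrpl49 and 0.79 for Fau.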

How the data were processed

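Gene expression was compared between 2 libraries of omentum, 1 WT and 1 Postn-DTR, grouped by the genotype label. Per the labels, RNA isolation used miRNeasy columns and library preparation used the strand-specific TruSeq mRNA kit. The study's RNA-seq methods instead name RNeasy Micro and NEBNext Ultra kits, for sorted omental cells, and do not say which libraries they cover. The authors deposited FPKM with 1 value per gene symbol. The submitters' processing notes name TopHat2 2.1.1, Bowtie2 2.2.8, SAMtools 0.1.18, Cuffdiff 2.2.1 and build mm10, and the annotation and the counting settings were not given in the sources used here. FPKM keeps no counts, so the depth is approximate. Of 683 genes detected below an FPKM of 0.1 in each library, 166 shared the ratio 0.967 (Postn-DTR over WT). Denominators, and the 210 bases taken off each transcript length, were then set to the values that brought most low FPKM values of genes with a single GENCODE M21 transcript of at least 1000 bases to whole fragments. With them 71.6% of these values in WT and 69.6% in Postn-DTR lay within 0.05 of a whole fragment, shares that this choice itself maximised.

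Changes are differences of log2(FPKM + 1), which understate the change of genes with low FPKM. Lists are described by counts and medians, with no test. The members and the gene lists were chosen with earlier results of these data known. Every member could be named, and of each other list the 3 genes with the highest mean FPKM and the 3 with the largest change in each direction, with Postn, Gapdh and Rpl13a as checks. Neighbouring genes, and sequences shown, were chosen after the values were seen. The cytosolic list was formed by symbol, without named paralogues such as Rpl3l. The assembly list held 30 symbols, older symbols included, of which 24 were in the table. All 77 members matched 1 gene in GENCODE M21. Fragments were estimated from the shortest principal coding transcript. Python 3.11.15 with pandas 2.3.3 and numpy 2.4.6 was used, and the scripts were tested on simulated data. The 9 alternatives changed the pseudocount, the FPKM minimum, the scaling, or the members kept. Counts of members beyond the counting interval and of cytosolic genes past 1.5-fold, and list medians, were recomputed under other scalings, an addition made after seeing the data.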

Additional observations from a re-analysis of the deposited data

How the results depend on the processing

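The median change of the members (0.16) became 0.17 with a pseudocount of 0.1, 0.14 with a pseudocount of 5, 0.17 with a mean FPKM of at least 10 (where the median of all genes went from 0.02 to 0.09), 0.15 after centring on all genes, 0.062 at an equal 75th percentile, -0.16 at equal totals without acinar genes, 0.13 with transcripts of at least 1000 bases, and 0.15 without overlapping genes. The number of members higher in Postn-DTR (56 of 77) became 45 at an equal 75th percentile, 19 at equal totals, 36 of 48 long transcripts and 25 of 36 genes without overlap, where fewer members were counted. The 1 member at least 1.5-fold higher became 0 at equal totals and 0 without overlapping genes, since Mrps18b overlaps a gene. The 0 members at least 1.5-fold lower became 2 at an equal 75th percentile and 5 at equal totals, where the median of all genes was -0.07 and -0.27. The share of all genes past 1.5-fold was not computed there. No member reached 2-fold under any of the alternatives.

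The cytosolic minus mitochondrial difference (0.48) became 0.50 with a pseudocount of 5, 0.47 with an FPKM minimum of 10 and at equal totals, 0.51 for long transcripts and 0.49 without overlap. A scaling of whole libraries can hardly move such a difference of medians. The small minus large subunit difference (-0.028) became -0.025 with a pseudocount of 5 and -0.13 without overlap. The bacterial-type minus mitochondrion-specific difference (-0.031) became -0.022 with a pseudocount of 5, -0.0071 with an FPKM minimum of 10, 0.059 for long transcripts and -0.053 without overlap, and the cause of the turn was not tested. Without an FPKM minimum no value of the members moved. No paired analysis was possible because each genotype has 1 library. With 1 library per genotype, no setting shows whether any difference exceeds the variation between mice.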
